A study of Mus musculus with 10 samples.

Results

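Brown adipose tissue makes heat, and it also releases proteins that act on other cells of the depot and on distant organs. Such factors have been called batokines. Described here are 10 genes listed for factors that active brown fat secretes, namely Fgf21, Nrg4, Bmp8b, Gdf15, Il6, Cxcl14, Igf1, Slit2, Pltp and Ephx1. They were taken by gene symbol from the 54347 gene records of the count table, and all 10 were found, each with 1 record. Of these, 8 had enough counts to be among the 13732 genes tested, while Il6 and Slit2 did not.

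Gene-level counts of poly A RNA were compared in interscapular brown adipose tissue (iBAT) of 5 ΔGm15551 mice (replicates 1, 2, 4, 5 and 7) and 5 wild type litter mates (replicates 2, 3, 5, 6 and 7). In ΔGm15551 mice, exon 1 of the long non-coding RNA gene Gm15551 was removed in the whole animal by CRISPR/Cas9, in 1 line on the C57BL/6N background that had been crossed back to wild type. All 10 mice were 12 weeks old, were fed chow and were kept alone at 4 °C for 24 h, so the values describe cold-exposed tissue of both genotypes and not the response to cold. The sex of the mice is not in the labels. Each mouse was 1 library, and the libraries held 9680976 to 15771170 counts. Gm15551 itself had 0 counts in all 5 ΔGm15551 mice and 1, 2, 6, 7 and 0 counts in wild type replicates 2, 3, 5, 6 and 7.

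The factors act through different routes. FGF21, IGF1, NRG4 and BMP8B are growth factors that bind receptor kinases, GDF15 and FGF21 are also hormones made by many tissues under metabolic stress, and IL-6 and CXCL14 are a cytokine and a chemokine. SLIT2 is a guidance protein whose cleaved fragment has been linked to thermogenesis. PLTP moves phospholipids between lipoproteins, and EPHX1, the microsomal epoxide hydrolase, is an enzyme best known from the endoplasmic reticulum.

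Sequences are given for the member with a close copy, since reads of the copies can be confused, and for the pair of hormones that share a stress-response route. Bmp8b has the copy Bmp8a. Their coding sequences were identical at 1056 of 1200 aligned bases (88%) in the transcripts of GENCODE M21. The most alike stretch of 90 bases, at coding bases 325 to 414 of both genes, had 0 differences, so a read lying wholly inside it fits both genes. The least alike stretch had 22 differences, shown in capitals.
Bmp8b and Bmp8a, coding bases 325 to 414: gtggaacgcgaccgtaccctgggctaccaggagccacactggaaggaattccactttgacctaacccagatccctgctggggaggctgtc
Bmp8b, coding bases 1072 to 1161: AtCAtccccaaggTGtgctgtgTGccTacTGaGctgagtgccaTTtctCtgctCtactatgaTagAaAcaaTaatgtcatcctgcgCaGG
Bmp8a, coding bases 1111 to 1200: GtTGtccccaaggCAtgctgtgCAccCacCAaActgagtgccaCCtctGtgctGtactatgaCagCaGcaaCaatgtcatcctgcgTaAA

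Fgf21 and Gdf15 are known targets of ATF4, the factor of the integrated stress response, which binds C/EBP-ATF response elements. RefSeq lists 1 promoter for Fgf21 and 2 for Gdf15. The 250 bases before the start of the first, on GRCm38.p6, are printed 5′ to 3′ on the strand of the gene. Capitals mark matches, on either strand, to TGATGNAA (a C/EBP-ATF element) or to TGACG (the half-site of a cyclic AMP response element). Both lie on the minus strand, at chr7:45615491-45615740 for Fgf21 and chr8:70632457-70632706 for Gdf15.
Fgf21 promoter: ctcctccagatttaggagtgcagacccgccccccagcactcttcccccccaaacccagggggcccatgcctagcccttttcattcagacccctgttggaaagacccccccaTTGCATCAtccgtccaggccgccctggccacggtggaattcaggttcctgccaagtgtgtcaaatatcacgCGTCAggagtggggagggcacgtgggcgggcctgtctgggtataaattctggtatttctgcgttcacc
Gdf15 promoter: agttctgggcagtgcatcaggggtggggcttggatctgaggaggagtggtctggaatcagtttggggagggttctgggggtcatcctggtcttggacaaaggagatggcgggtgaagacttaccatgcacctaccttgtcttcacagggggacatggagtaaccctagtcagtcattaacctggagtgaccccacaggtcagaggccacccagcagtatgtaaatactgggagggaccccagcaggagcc

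The Fgf21 window held 1 match to TGATGNAA, 139 to 132 bases before the start, and 1 half-site, 68 to 64 bases before it. Of 32851 promoter windows of this length, 3.45% held TGATGNAA and 17.8% held TGACG. The first Gdf15 window held neither, nor did the second (chr8:70632096-70632345, not printed), which says only that these letters are not in these windows.

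The labelled tissue was checked first. All 10 brown adipocyte markers listed, such as Ucp1, the uncoupling protein, and Cidea, a lipid droplet protein, were tested, and their summed level was 12643 to 16839.6 CPM (counts scaled to a common library total with a correction for library composition) in ΔGm15551 and 12734 to 15482 CPM in wild type. Skeletal muscle RNA varied between mice of both genotypes. The 10 muscle markers, among them Acta1 and Ckm, summed to 1.35 to 2.91 CPM in 4 mice (ΔGm15551 replicates 2 and 7, wild type replicates 3 and 6) and to 54.4 to 2939 CPM in the other 6. The 3 libraries with the highest mean muscle level were ΔGm15551 replicates 1 and 4 and wild type replicate 7. In bulk tissue, fewer cells of a type and less RNA per cell cannot be told apart.

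No secreted-factor gene passed the test between ΔGm15551 and wild type. Of the 8 tested, 0 were called at a Benjamini-Hochberg adjusted p under 0.05 over all genes (quasi-likelihood test of edgeR), as were 0% of all genes. DESeq2 and limma-voom also called 0 of the 8. At an unadjusted p under 0.05 there were again 0 of 8, against 1.59% of all genes (0.961% higher and 0.634% lower in ΔGm15551). The groups overlapped for all 8, whereas they did not for 0.32% of all genes. The log2 fold change (log2FC, ΔGm15551 against wild type) was above 0 for 5 and below 0 for 3, with a median of 0.12. Over all genes tested the median was -0.0009 (49.7% above 0), and the median size of a change, whatever its sign, was 0.17 for the 8 and 0.09 for all genes. For 7 of the 8, the 95% interval lay within a log2FC of 1 in either direction, that is, within a 2-fold change. Gdf15 was the exception.

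**Figure D1:**
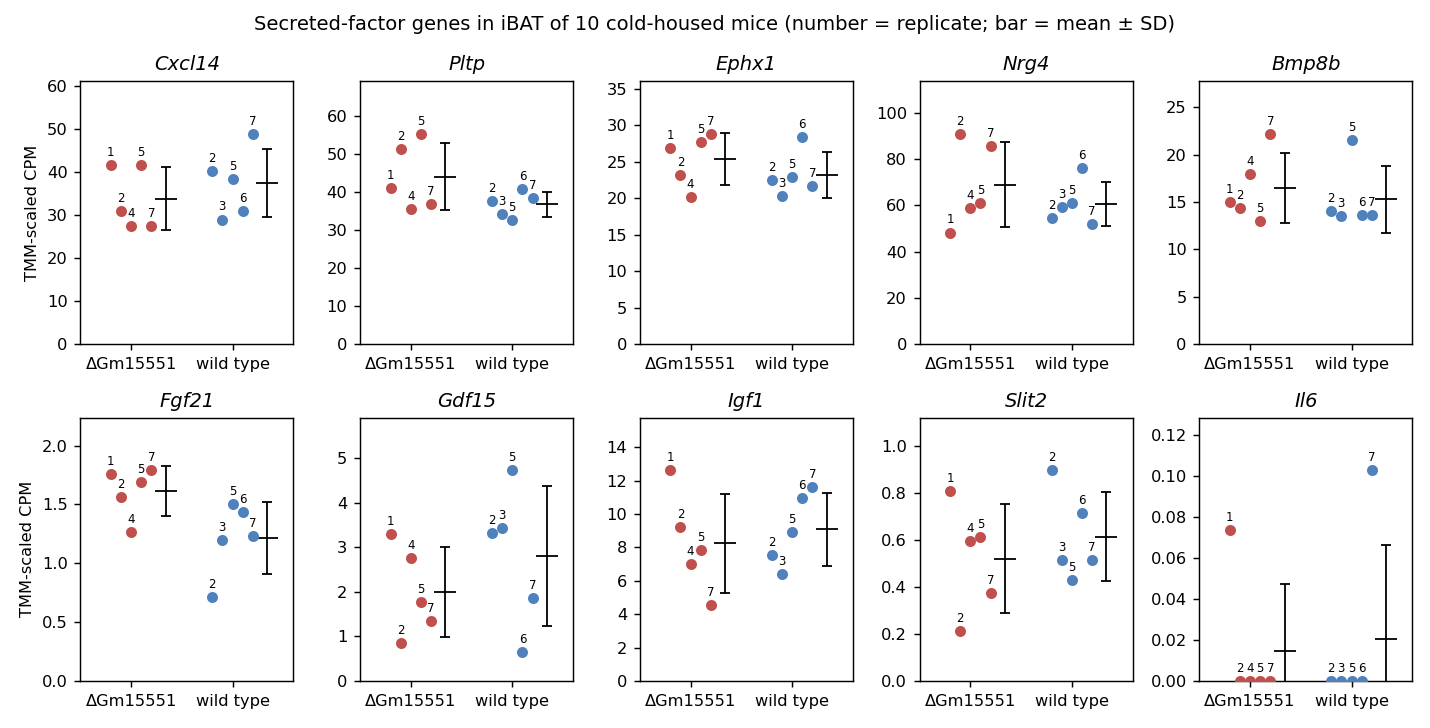
Level of each of the 10 secreted-factor genes in every mouse, in CPM on a linear axis from 0, with ΔGm15551 mice in red, wild type mice in blue, the replicate number above each point and the mean ± SD of 5 mice as a bar. The groups overlap in every panel, and Fgf21 comes closest to separation, with 4 of 5 ΔGm15551 mice above all wild type mice.

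**Figure D2:**
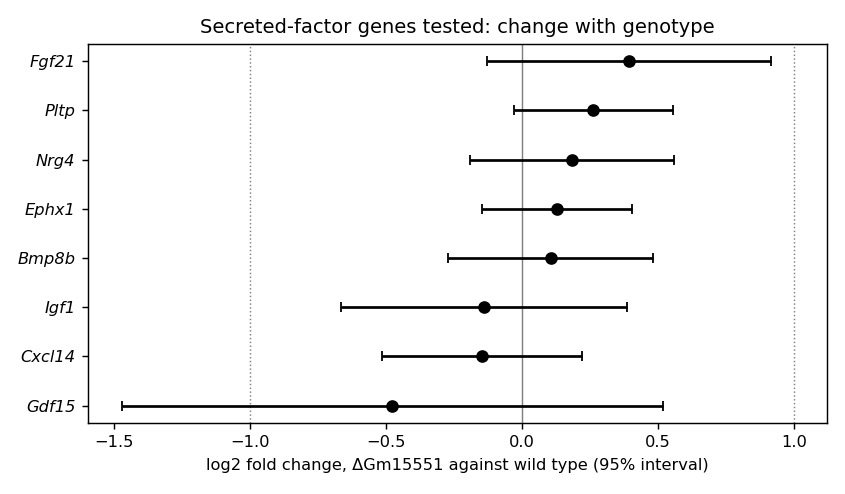
Log2FC of the 8 genes tested with its 95% interval, where dotted lines mark a 2-fold change. All 8 intervals include 0, and that of Gdf15, from -1.47 to 0.52, is the widest.

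Among the growth factors, Fgf21, the hormone that signals through FGFR1 and β-Klotho, lay on chromosome 7 (45613886 to 45615490, GRCm38). It had 8 to 24 counts a mouse. Its level was 1.76, 1.56, 1.26, 1.69 and 1.79 CPM in ΔGm15551 replicates 1, 2, 4, 5 and 7. In wild type replicates 2, 3, 5, 6 and 7 it was 0.716, 1.20, 1.5, 1.43 and 1.23 CPM. Wild type replicate 2 was the lowest mouse, and ΔGm15551 replicate 4 was the only one of its group inside the wild type range. The means were 1.61 ± 0.214 and 1.22 ± 0.308 CPM (SD, n = 5 each), a log2FC of 0.39 (SE 0.24, 95% interval -0.13 to 0.92) with an unadjusted p in edgeR of 0.128. The adjusted p was 0.999809, as for each of the 8 genes. Leaving out single mice, the log2FC ran from 0.26 (without wild type replicate 2) to 0.48 (without wild type replicate 5). It was 0.75 (unadjusted p = 0.0729 in edgeR) without wild type replicates 5, 6 and 7 together. The spread within groups (SD 0.29 on the log2 scale) was near the 0.33 that counting error alone gives at this depth. The SD included a prior count of 2, which narrows it at low counts, and the 0.33 did not.

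Nrg4, the neuregulin that brown adipocytes release and that binds ErbB receptors, was the member with the most counts (8493 over the 10 mice; chromosome 9, 55220222 to 55326844). Its level was 48.2, 90.9, 58.6, 61.0 and 85.5 CPM in ΔGm15551 replicates 1, 2, 4, 5 and 7. It was 54.5, 59.4, 60.9, 76.2 and 51.7 CPM in wild type replicates 2, 3, 5, 6 and 7. ΔGm15551 replicates 2 and 7 exceeded every wild type mouse, replicate 1 was below them all, and the rest lay among them. The means were 68.8 ± 18.4 and 60.5 ± 9.50 CPM, and the log2FC was 0.18 (SE 0.17, 95% interval -0.19 to 0.56; unadjusted p = 0.309 in edgeR).

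Nrg4 was also set against muscle RNA. In the 4 mice nearly free of it Nrg4 was at 59.4 to 90.9 CPM, and in the other 6 at 48.2 to 61.0 CPM, so the ranges barely overlapped. Within those 6 mice the correlation of Nrg4 with the mean muscle level was weak (r = -0.37, exact permutation p = 0.446, 0.833 after adjustment over the 8 genes, two-sided; rho = -0.43, exact permutation p = 0.419). With the muscle level as a covariate, the log2FC for genotype was 0.17 (unadjusted p = 0.196 in edgeR). It was 0.33 (unadjusted p = 0.0637 in edgeR) without the 3 libraries richest in muscle RNA. Leaving out single mice, it was 0.06 without ΔGm15551 replicate 2 and 0.09 without ΔGm15551 replicate 7, and was at most 0.29, without ΔGm15551 replicate 1. In the 6 mice with a replicate number found in both genotypes (2, 5 and 7) it was 0.50 (unadjusted p = 0.0178, adjusted p = 0.964 in edgeR). Part of the exons of Nrg4 lies over Fbxo22 on the opposite strand (7.25% of its 31-base words occur in another gene), and whether counting used the strand is not stated.

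Bmp8b, which raises the response of brown fat to adrenergic drive, lay on chromosome 4 (123105165 to 123132099). It was at 15, 14.4, 17.9, 13.0 and 22.2 CPM in ΔGm15551 replicates 1, 2, 4, 5 and 7, and at 14.1, 13.5, 21.6, 13.7 and 13.7 CPM in wild type replicates 2, 3, 5, 6 and 7. One mouse of each group stood high, ΔGm15551 replicate 7 and wild type replicate 5, ΔGm15551 replicate 4 lay between, and the other 7 were at 13.0 to 15 CPM. The log2FC was 0.11 (SE 0.17, 95% interval -0.27 to 0.48; unadjusted p = 0.552 in edgeR), and it was -0.03 without ΔGm15551 replicate 7 and 0.27 without wild type replicate 5. Bmp8a, the copy compared above, had 1 count over all 10 mice where Bmp8b had 2075. As 11.8% of the 31-base words of Bmp8b occur in another gene, counts on those stretches were placed by estimation.

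Igf1, the growth factor carried by IGF-binding proteins, lay on chromosome 10 (87858265 to 87937042). It was at 12.6, 9.24, 6.99, 7.82 and 4.55 CPM in ΔGm15551 replicates 1, 2, 4, 5 and 7 and at 7.52, 6.42, 8.94, 10.9 and 11.6 CPM in wild type replicates 2, 3, 5, 6 and 7. Both the highest and the lowest mouse were ΔGm15551. The means of 8.24 ± 2.98 and 9.09 ± 2.20 CPM gave a log2FC of -0.14 (SE 0.24, 95% interval -0.66 to 0.39, unadjusted p = 0.577 in edgeR). It became 0.01 without ΔGm15551 replicate 7, the lowest mouse, and -0.34 without ΔGm15551 replicate 1, the highest. Without wild type replicates 5, 6 and 7 together it was 0.25 (unadjusted p = 0.469 in edgeR).

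Gdf15, a hormone that lowers food intake through a receptor in the hindbrain, was the most variable member (chromosome 8, 70629393 to 70632456). Its level was 3.30, 0.853, 2.75, 1.76 and 1.34 CPM in ΔGm15551 replicates 1, 2, 4, 5 and 7. In wild type replicates 2, 3, 5, 6 and 7 it was 3.31, 3.43, 4.72, 0.651 and 1.85 CPM. Wild type held both the lowest and the highest mouse, 7.25-fold apart, and the ΔGm15551 mice lay wholly inside that range. The SD within groups was 0.88 on the log2 scale, higher than in 97.8% of all genes tested and above the 0.26 from counting error (10 to 66 counts a mouse). The means were 2.0 ± 1.01 and 2.79 ± 1.57 CPM, and the log2FC was -0.48 (SE 0.46, 95% interval -1.47 to 0.52; unadjusted p = 0.319 in edgeR). Without the 3 libraries richest in muscle RNA the log2FC was -1.19 (unadjusted p = 0.0561 in edgeR). Leaving out single mice, it ran from -0.19 without wild type replicate 5 (unadjusted p = 0.698 in edgeR) and -0.28 without ΔGm15551 replicate 2 to -0.74 without wild type replicate 6 (unadjusted p = 0.0715 in edgeR). In the 6 mice with a replicate number found in both genotypes (2, 5 and 7) it was -1.33 (unadjusted p = 0.00872, adjusted p = 0.964 in edgeR).

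Cxcl14, a chemokine that draws macrophages, had the highest level per length of merged exons (chromosome 13, 56288643 to 56296551). It was at 41.5, 30.8, 27.5, 41.7 and 27.5 CPM in ΔGm15551 replicates 1, 2, 4, 5 and 7 and at 40.1, 28.9, 38.4, 30.9 and 48.9 CPM in wild type replicates 2, 3, 5, 6 and 7. The groups overlapped, at 27.5 to 41.7 CPM in ΔGm15551 and 28.9 to 48.9 CPM in wild type, with 2 ΔGm15551 mice below all wild type mice. The 4 mice nearly free of muscle RNA were at 27.5 to 30.9 CPM, and the other 6 at 27.5 to 48.9 CPM, with ΔGm15551 replicate 4 alone of these 6 as low as the first 4. The log2FC for genotype was -0.15 (SE 0.17, 95% interval -0.51 to 0.22; unadjusted p = 0.407 in edgeR). It was -0.03 without wild type replicate 7 and -0.05 without the 3 libraries richest in muscle RNA. Without ΔGm15551 replicate 5 it was -0.23, the most negative of the fits that left out 1 mouse. In the 6 mice with a replicate number found in both genotypes it was -0.35 (unadjusted p = 0.0870 in edgeR). All 10 macrophage markers, such as Lyz2 and Csf1r, were tested with 0 called, and they summed to 59.4 to 113 CPM in ΔGm15551 and 70.7 to 124 CPM in wild type. Their log2FC was below 0 for all 10, with a median of -0.20.

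The other cytokine and the guidance protein were near the limit of detection. Il6 (chromosome 5, 30013114 to 30019981) had 1 count in ΔGm15551 replicate 1, 1 in wild type replicate 7 and 0 in the other 8 mice, where a count of 0 allows up to 3 counts, or 0.190 to 0.310 CPM depending on the depth. Slit2 (chromosome 5, 47983138 to 48307733) was at 0.807, 0.213, 0.595, 0.614 and 0.373 CPM in ΔGm15551 replicates 1, 2, 4, 5 and 7 and at 0.895, 0.514, 0.429, 0.716 and 0.513 CPM in wild type replicates 2, 3, 5, 6 and 7, from 3 to 11 counts a mouse. The groups overlapped, and the exact permutation test (two-sided, over all assignments of the mice, smallest possible p 0.00794) gave p = 0.540 for Slit2 and p = 1 for Il6. A difference in Il6 was not detectable at this depth.

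Of the enzymes and transfer proteins, Pltp came closest to the threshold (chromosome 2, 164839518 to 164857711). Its level was 41.2, 51.5, 35.7, 55.5 and 36.8 CPM in ΔGm15551 replicates 1, 2, 4, 5 and 7. In wild type replicates 2, 3, 5, 6 and 7 it was 37.7, 34.2, 32.7, 40.9 and 38.5 CPM. ΔGm15551 replicates 1, 2 and 5 exceeded every wild type mouse, and the other two were among them. The means of 44.2 ± 8.88 and 36.8 ± 3.34 CPM gave a log2FC of 0.26 (SE 0.14, 95% interval -0.03 to 0.56) with an unadjusted p of 0.0746 in edgeR, the smallest of the 8. Its unadjusted p in edgeR was 0.0329 without ΔGm15551 replicate 4, 0.0420 without ΔGm15551 replicate 7 and 0.0243 without the 3 libraries richest in muscle RNA, where the log2FC was 0.40. It was 0.178 without ΔGm15551 replicate 2 and 0.219 without ΔGm15551 replicate 5, where the log2FC was 0.20 and 0.17. In each of these fits the adjusted p stayed above 0.96. The gene shares 13.9% of its 31-base words with Ctsa, which lies over it on the opposite strand, so reads of the pair may have been split between them.

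Ephx1 (chromosome 1, 180976210 to 181020904) was the least variable of the 8 tested. It was at 26.9, 23.2, 20.2, 27.8 and 28.9 CPM in ΔGm15551 replicates 1, 2, 4, 5 and 7 and at 22.6, 20.3, 23.0, 28.4 and 21.7 CPM in wild type replicates 2, 3, 5, 6 and 7. ΔGm15551 replicates 1, 5 and 7 and wild type replicate 6 were the higher 4 mice, at 26.9 to 28.9 CPM, and the other 6 were at 20.2 to 23.2 CPM. The log2FC was 0.13 (SE 0.13, 95% interval -0.15 to 0.40; unadjusted p = 0.331 in edgeR), and 0.08 to 0.21 when single mice were left out.

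Levels between genes were then compared per kilobase of exon (CPM/kb, all exons of a gene merged). The order by the mean of 10 mice was Cxcl14 (19.5 ± 4.07 CPM/kb), Pltp (15.8 ± 2.89), Ephx1 (12.5 ± 1.73), Nrg4 (10.6 ± 2.38), Bmp8b (4.10 ± 0.889), Fgf21 (1.49 ± 0.343), Gdf15 (1.29 ± 0.708), Igf1 (0.875 ± 0.253) and Slit2 (0.0223 ± 0.00806). Il6 came last with counts in 2 mice. Cxcl14 was higher per length than 86.3% of the genes tested and Igf1 than 21.7%. Nrg4 was above Bmp8b, Bmp8b above Fgf21 and Igf1 above Slit2 in all 10 mice. From Cxcl14 down to Nrg4 each gene was above the next in 9 of 10 mice, and its mean was at most 1.27-fold that of the next. Fgf21 was above Gdf15 in 6 mice only and Gdf15 above Igf1 in 7, so these neighbours did not differ beyond their spread.

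**Figure D3:**
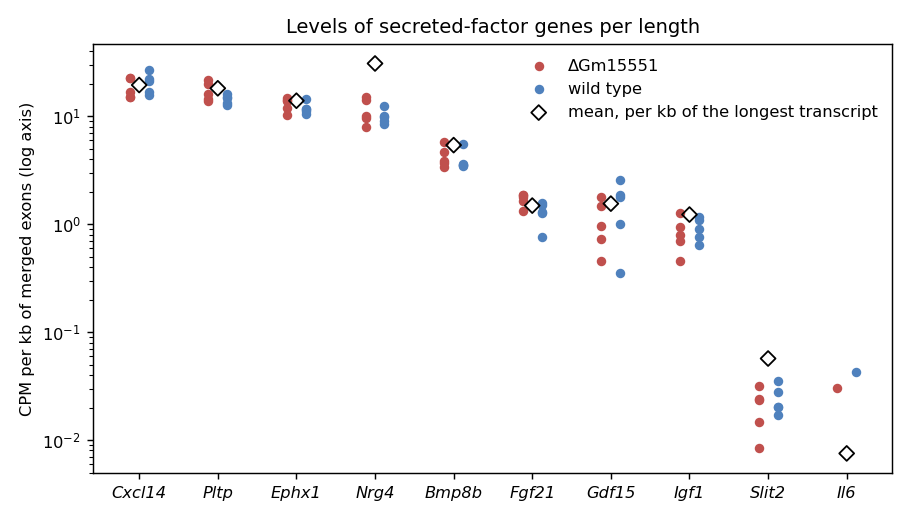
Level per kilobase of merged exons on a log axis for each mouse (ΔGm15551 red, wild type blue), ordered by mean, with the mean per kilobase of the longest annotated transcript as an open diamond. Mice with 0 counts are not drawn, which leaves 2 points for Il6. Nrg4 moves to first place with the other length.

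The place of Nrg4 rests on the length used. Its 13 annotated transcripts merge to 6075 bp of exons, whereas its longest transcript has 2095 bp. Per kilobase of the longest transcript it was at 30.9 CPM/kb and first in the order, and Gdf15 passed Fgf21.

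The level of the receptors and partners of these factors was examined for the same comparison. The lists held 88 genes, of which 66 were tested. None was called at an adjusted p under 0.05. At an unadjusted p under 0.05 in edgeR there were 3 genes, all higher in ΔGm15551, where 0.961% of all genes tested passed in that direction. The median log2FC of the 66 was 0.05. The count of 3 was 6 without wild type replicate 7, 7 without the 3 libraries richest in muscle RNA and 2 without wild type replicates 5, 6 and 7. The count over all genes was 219 in the main fit and 404, 562 and 278 in these fits, in that order.

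**Figure D4:**
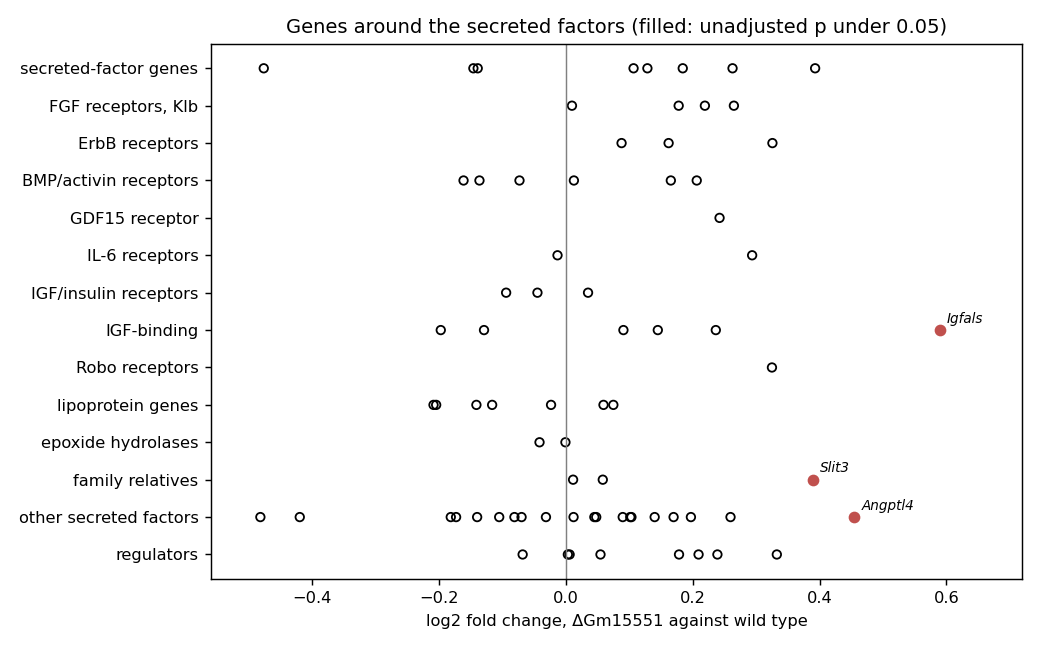
Log2FC of every gene tested in the lists of receptors, binding proteins, relatives, further secreted factors and regulatory genes, with the 8 secreted-factor genes in the top row and 1 circle per gene. Filled red circles mark Igfals, Slit3 and Angptl4, the 3 genes with an unadjusted p under 0.05, and 0 genes pass after adjustment.

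Slit3, a relative of Slit2 with the same Robo receptors, was at 26, 26.7, 26.1, 30.5 and 21 CPM in ΔGm15551 replicates 1, 2, 4, 5 and 7. In wild type replicates 2, 3, 5, 6 and 7 it was at 18.7, 19.6, 22.5, 21.9 and 16.6 CPM. ΔGm15551 replicate 7 alone fell within the wild type range. The log2FC was 0.39 (SE 0.12; unadjusted p = 0.00664, adjusted p = 0.999809 in edgeR). Slit3 was far above Slit2 in every mouse also per length, at 3.78 CPM/kb on average. The third relative, Slit1, was under the filter with 29 counts in all.

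Igfals, the acid-labile subunit that holds IGF1 in its circulating complex, was at 5.21, 5.04, 4.09, 4.6 and 4.18 CPM in ΔGm15551 replicates 1, 2, 4, 5 and 7 and at 1.88, 3.68, 3.58, 3.84 and 2.26 CPM in wild type replicates 2, 3, 5, 6 and 7. Every ΔGm15551 mouse exceeded every wild type mouse, as was the case for 0.226% of all genes. The log2FC was 0.59 (SE 0.21; unadjusted p = 0.0157, adjusted p = 0.999809 in edgeR). The other 5 IGF-binding genes tested did not pass an unadjusted p of 0.05. The most abundant, Igfbp7 and Igfbp3, had a log2FC of 0.09 and 0.14, and Igfbp5 and Igfbp4 of -0.13 and -0.20. For the receptors Insr, Igf2r and Igf1r it was -0.09, 0.03 and -0.05.

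Angptl4, a secreted inhibitor of lipoprotein lipase, was at 151, 137, 128, 173 and 107 CPM in ΔGm15551 replicates 1, 2, 4, 5 and 7 and at 124, 78.5, 91.2, 97.6 and 116 CPM in wild type replicates 2, 3, 5, 6 and 7. Of the 5 ΔGm15551 mice, 4 exceeded the highest wild type mouse. The log2FC was 0.45 (SE 0.16; unadjusted p = 0.0116, adjusted p = 0.999809 in edgeR). Lpl, the lipase itself and the most abundant gene of the lipoprotein list, had a log2FC of -0.21 (unadjusted p = 0.137 in edgeR). Of the 7 lipoprotein genes tested, 0 had an unadjusted p under 0.05, among them Apoe (log2FC -0.02) and Vldlr (0.07), a ligand and a receptor of lipoprotein uptake.

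Among the receptors, those of FGF21 were present. Fgfr1 had a level of 60.3 ± 13.7 CPM (ΔGm15551) and 59.9 ± 12.3 CPM (wild type), and Klb, its co-receptor β-Klotho, at 24.2 ± 9.33 and 20.7 ± 6.03 CPM. Of the ErbB receptors, Erbb3 was at 5.06 ± 0.871 and 4.77 ± 0.990 CPM, while Erbb4 stayed under the filter with 101 counts over the 10 mice. Gfral, the receptor of GDF15, had 0 counts in all mice, and its signalling partner Ret was at 3.18 ± 1.24 and 2.71 ± 1.0 CPM.

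For BMP8B, 6 of 7 BMP and activin receptor genes were tested, and the most abundant were Bmpr2 (log2FC -0.07) and Acvr1c (0.21). For IL-6, the shared subunit Il6st was at 87.1 ± 4.96 and 87.9 ± 9.0 CPM, and the binding subunit Il6ra at 7.87 ± 1.73 and 6.42 ± 0.663 CPM (log2FC 0.29, unadjusted p = 0.0854 in edgeR). Of the 4 Robo receptors only the endothelial Robo4 was tested, at 47.2 ± 11.1 and 37.7 ± 7.26 CPM (log2FC 0.32, unadjusted p = 0.0801 in edgeR). Ephx2, the soluble epoxide hydrolase, was at 521 ± 47.0 and 521 ± 79.7 CPM. Its mean of 210 CPM/kb compares with 12.5 CPM/kb for Ephx1.

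Of the 23 further secreted factors listed, 20 were tested. The most abundant were Vegfa, the vascular growth factor (log2FC 0.14), Cxcl12, a chemokine (0.10), and Nampt, an enzyme of NAD synthesis (0.10). A list of 8 stress-response and regulatory genes was tested in full, with 0 at an unadjusted p under 0.05 and a median log2FC of 0.12. Atf5 was at 413 ± 90.1 and 350 ± 85.0 CPM, Ppargc1a at 222 ± 59.4 and 232 ± 95.9 CPM, and Atf4 at 134 ± 17.4 and 134 ± 22.2 CPM.

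Whether the factors varied together between mice was examined over all 10 mice. Of the 28 pairs of the 8 genes, 0 passed after Benjamini-Hochberg adjustment (permutation test, 100000 resamples, two-sided). The pair with the smallest p was Nrg4 and Gdf15 (r = -0.74, permutation p = 0.0153, adjusted 0.406; rho = -0.60, permutation p = 0.0724, adjusted 0.410). Its r was -0.72 over deviations from the group means and -0.63 without the 2 mice farthest from the median of Nrg4. Fgf21 and Ephx1 had the highest rank correlation (rho = 0.76, permutation p = 0.0146, adjusted 0.410; r = 0.59, permutation p = 0.0580, adjusted 0.406), with r = 0.78 without the 2 mice farthest from the median of Fgf21.

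Correlations with the mean level of cell type markers were computed for 40 pairs, of which 0 passed after adjustment. Because the mice fell into 2 sets by muscle RNA, the 8 with muscle are given only within the 6 mice that held muscle RNA, where r lay between -0.53 (Ephx1) and 0.44 (Igf1). Among the pairs with the other 4 marker lists, the highest r was that of Cxcl14 with the endothelial markers, among them Kdr and Cdh5 (r = 0.74, permutation p = 0.0185, adjusted 0.345; rho = 0.61, permutation p = 0.0668, adjusted 0.447). The r was 0.90 over deviations from the group means (permutation p = 0.00063, adjusted 0.0252) and 0.56 without the 2 mice farthest from the median endothelial level. The permutation of deviations ran across both genotypes and did not allow for the fitted group means, so its p may be too small. For Nrg4 and the macrophage markers the relation was negative but did not pass either (r = -0.69, permutation p = 0.0258, adjusted 0.345; rho = -0.73, permutation p = 0.0198, adjusted 0.263; r = -0.58 without the 2 extreme mice).

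**Figure D5:**
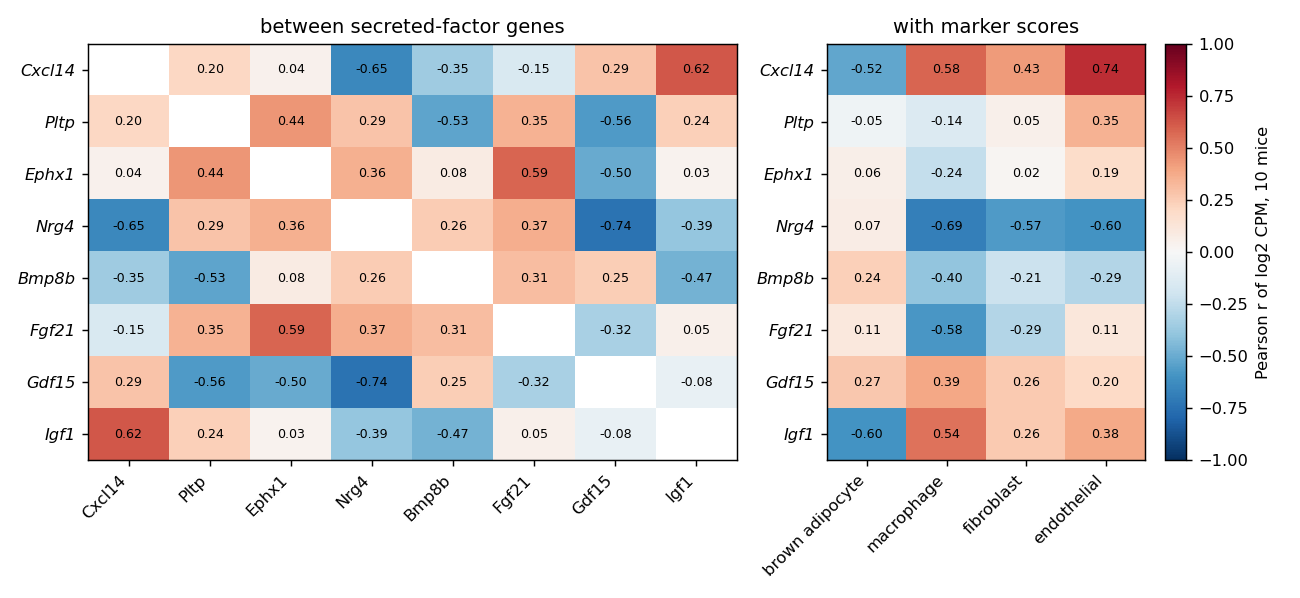
Pearson r of log2 CPM over 10 mice between the 8 secreted-factor genes (left) and between them and the mean log2 level of 4 marker lists (right), red for positive and blue for negative. The most negative pair is Nrg4 with Gdf15, and the most positive value with a marker list is that of Cxcl14 with endothelial markers.

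The genes most alike in pattern were sought for the 3 members that varied most within groups, by r over the 10 mice among the 13731 other genes tested, as a description with no test. For Gdf15 they were Zswim9 (r = 0.955), Abcg1 (0.946) and 6820408C15Rik (0.931). For Igf1 they were Prss27 (0.969), B2m (0.911) and Cd55 (0.910). For Nrg4 they were Prepl (0.956), Bcs1l (0.937) and Glul (0.937).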

How the data were processed

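Poly A RNA of iBAT from 5 ΔGm15551 and 5 wild type mice was analysed. Per the labels and the study's methods, libraries were made with the NEBNext Ultra II RNA kit, reads were filtered with cutadapt, and salmon assigned them to the GENCODE M22 transcriptome (or M22 joined with RNAcentral) on GRCm38. Versions, the strand setting and the step that gave gene-level whole numbers are not given in the sources used here. The values deposited by the authors were estimated counts per gene, not scaled for depth, with 1 column per mouse.

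Counts were fitted in R 4.3.3 with edgeR 4.0.16 (filterByExpr with minimum count 10 and minimum total 15, TMM, robust glmQLFit and glmQLFTest, genotype as the only term), with Benjamini-Hochberg adjustment over 13732 genes and a threshold of 0.05. The biological coefficient of variation was 0.229. CPM are TMM-scaled; the exact permutation tests of genes under the filter used library totals, and log2 CPM had a prior count of 2. Gene positions, exon lengths and transcripts came from GENCODE M21 on the same build (99.5% of IDs found) and promoters from RefSeq. In counts simulated for this comparison over 13732 genes, 67% of genes changed 2-fold (log2FC 1) and 11% of those changed by a log2FC of 0.5 were called. The simulation drew each gene independently, without variation shared between genes such as that of muscle RNA, and changed 100 genes at each size. Of its 13532 unchanged genes, 642 had an unadjusted p under 0.05 in edgeR, against 219 of 13732 genes in the data. A lone change in these data may therefore be called less often than these shares. Correlations used scipy 1.17.1.

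Depth was 9680976 to 15771170 counts a mouse. The floor of 3 counts covers counting error alone, because reads were not tagged by molecule and are not independent. Replicates were separate mice. The genes described, the lists and the tests were chosen with earlier results of these data known. The genes named were the 10 factors, each listed gene with an unadjusted p under 0.05, the 2 to 4 most abundant genes of a list, Gm15551, and the 3 genes most alike for the 3 most variable factors; a few partners outside this rule (Klb, Erbb3, Erbb4, Gfral, Ret, Slit1, Bmp8a, Il6ra) and the fibroblast markers Pdgfra and Lum were named after their values were seen. Alternatives were edgeR's RLE (DESeq2 size factors), library totals, limma-voom (limma 3.58.1), DESeq2 1.42.0 with its Wald test, no filter or 1 CPM in 5 mice, a fit without robust estimation, a block by replicate number, fits without single mice or without wild type replicates 5, 6 and 7 (whose mouse numbers are higher), a muscle covariate and, chosen after seeing the data, leaving out the 3 libraries richest in muscle RNA. The split into 4 mice with a mean log2 muscle level below 0 and 6 above it was also made after seeing the data.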

Additional observations from a re-analysis of the deposited data

Results flagged for a closer look

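Of the 20 groups of 5 mice (10 genes in each genotype), 3 held a mouse far from the other 4; chance flags about 1 group in 20. Bmp8b was at 21.6 CPM in wild type replicate 5, separated from the nearest wild type mouse by 0.935 of the whole range of its group. Il6 was at 0.0734 CPM in ΔGm15551 replicate 1 and at 0.103 CPM in wild type replicate 7, and each of these values was 1 count where the other 4 mice of the group had 0, so that the gap fills the range by construction and says nothing of an unusual mouse.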

How the results depend on the processing

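The count of genes called and the count of secreted-factor genes called were 0 in all 22 alternatives, and the count of partner genes called was 0 in 22. For genes at an unadjusted p under 0.05 (219 in edgeR), DESeq2 gave 228 and limma-voom 248. The count was 869 without a filter, 562 without the 3 libraries richest in muscle RNA, and 168 to 419 when single mice were left out (419 without ΔGm15551 replicate 1, 404 without wild type replicate 7). The 6 mice with a number shared by both genotypes gave 552 genes, and 397 with the number as a block. For the secreted factors at that threshold, these 6 mice gave 3 (Pltp, Nrg4 with log2FC 0.50 and Gdf15 with -1.33) and 2 with the block (Nrg4, unadjusted p = 0.0465, and Gdf15, log2FC -1.29, unadjusted p = 0.0104, both in edgeR), leaving out the muscle-rich libraries gave 1 (Pltp), and leaving out single mice 0 to 1. For partner genes they gave 6, and 5 with the block, the muscle-rich libraries left out gave 7, and leaving out single mice 3 to 6. Deviations of same-numbered mice from their group means correlated at -0.065, 0.054 and -0.395, so no likeness within a number was seen. These values cannot exclude a pairing, because same-numbered mice could differ in muscle RNA. The mean log2 muscle level of replicate 7 was -1.91 in ΔGm15551 and 7.65 in wild type.

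The log2FC of Bmp8b turned to -0.0032 with the replicate block and -0.025 without ΔGm15551 replicate 7, and ran from -0.03 to 0.27 when single mice were left out. That of Igf1 turned to 0.25 without wild type replicates 5, 6 and 7, whose mouse numbers are higher, and to 0.012 without ΔGm15551 replicate 7, and ran from -0.34 to 0.01 when single mice were left out. The other 6 kept their sign in 22 of 22 alternatives, with Gdf15 between -1.33 and -0.19, Fgf21 between 0.26 and 0.75, Nrg4 between 0.06 and 0.50, Pltp between 0.17 and 0.40, Ephx1 between 0.08 and 0.25 and Cxcl14 between -0.36 and -0.03. With the longest transcript as length, 4 of 10 genes kept their place in the order of levels. Of the 40 correlations with markers, 1 passed over deviations from the group means (Cxcl14 with endothelial markers), where the permutation did not allow for the fitted means. When single mice were left out, 0 to 1 passed (Fgf21 with macrophage markers without ΔGm15551 replicate 1, Cxcl14 with muscle markers without ΔGm15551 replicate 4). The cause of these changes was not tested. Depth limits the genes with few counts, such as Il6, Slit2 and Fgf21.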

Other observations

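Among the markers used to check the tissue, 2 genes had an unadjusted p under 0.05 in edgeR, and 0 passed after adjustment. Adrb3, the β3-adrenergic receptor through which noradrenaline drives brown fat, had 198 ± 33.1 CPM (ΔGm15551) against 140 ± 16.1 CPM (wild type; SD, n = 5 each; log2FC 0.50, unadjusted p = 0.00254, adjusted p = 0.999809 in edgeR). None of the remaining brown adipocyte markers passed an unadjusted p of 0.05 in edgeR, and they went in both directions. The log2FC was 0.15 for Ucp1, 0.10 for Cox8b, 0.05 for Elovl3, 0.01 for Prdm16 and 0.004 for Kcnk3. It was -0.03 for Cidea, -0.08 for Dio2, -0.08 for Cox7a1 and -0.07 for Ppargc1a. The median of all 10, Adrb3 included, was 0.007. Pi16, a marker of fibroblast progenitors, was at 10.3 ± 4.99 and 5.89 ± 1.5 CPM (log2FC 0.81, unadjusted p = 0.0120, adjusted p = 0.999809 in edgeR), with 3 of 5 ΔGm15551 mice above all wild type mice. The other 6 fibroblast markers tested did not pass, with a log2FC of 0.01 for Pdgfra, -0.08 for Dcn, -0.06 for Lum, 0.04 for Col3a1, 0.17 for Col1a1 and 0.05 for Ly6a, and the median of the 7 was 0.04.

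Markers of liver and of Schwann cells were also listed. Of 4 liver genes listed, only Alb was tested, and the 4 summed to 1.34 to 4.10 CPM in ΔGm15551 and 1.72 to 2.77 CPM in wild type. The 5 Schwann cell genes, among them S100b and Mbp, summed to 97.1 to 209 CPM and 91.2 to 165 CPM, with 0 at an unadjusted p under 0.05.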
